A study of Homo sapiens with 8 samples.

Results

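The 10 genes described here encode the machinery of the G1 phase of the cell cycle in cell lines of T-ALL, an acute lymphoblastic leukaemia of T-cell precursors. They are the D-type cyclins CCND2 and CCND3, the kinases CDK4 and CDK6, the E-type cyclins CCNE1 and CCNE2, the inhibitors CDKN1B, CDKN2C and CDKN2D, and the pocket protein gene RB1. They were found by symbol among 63677 annotated genes, and all 10 were matched. The matching used no measured value, but the members were chosen with earlier results of these data known. RNA was measured by sequencing in DND-41 and MOLT-4, both established T-ALL lines. Cells of each line had received 100 nM ACBI-1 or its solvent control DMSO for 3 h. The 4 groups were DND-41 with ACBI-1, DND-41 with DMSO, MOLT-4 with ACBI-1 and MOLT-4 with DMSO, with 2 libraries each. The labels name no introduced allele in either line. Whether the replicates came from separate cultures is not given in the labels, so the p-values measure the spread between libraries, which may be technical.

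ACBI-1 is a degrader molecule: it joins the ligase VHL to PBRM1 and to the paired motor subunits SMARCA2 and SMARCA4 of SWI/SNF, a complex that moves nucleosomes, so that these proteins are destroyed. Protein was not measured here. In G1, growth signals raise D-type cyclins, which activate CDK4 and CDK6. These kinases begin the phosphorylation of RB, the product of RB1, and RB then releases E2F transcription factors, whose targets include the E-type cyclin genes. Cyclin E with CDK2 carries the phosphorylation further and drives entry into S phase. INK4 proteins, which include p18 from CDKN2C and p19 from CDKN2D, block CDK4 and CDK6, whereas p27 from CDKN1B blocks mainly cyclin-CDK2 complexes. In the T-cell lineage cyclin D3 and CDK6 are the forms best known for their part in thymocyte expansion and in T-ALL.

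The 8 libraries held 19867779 to 20082524 counts, of which 13.3% to 20.04% fell on mitochondrial genes. TLX3, a homeobox oncogene of the DND-41 line, had 4611 to 7523 counts in DND-41 libraries against 1 to 9 in MOLT-4 libraries. TAL1, an oncogene of the MOLT-4 line, had 0 to 4 counts in DND-41 libraries against 722 to 796 in MOLT-4 libraries. Of 11 T-lineage markers, 10 were above 1 CPM, the count scaled to library size, in both DND-41 groups and 11 in both MOLT-4 groups, and their summed level was 4867 to 4933 CPM in DND-41 and 2751 to 2862 CPM in MOLT-4. PTCRA, the pre-T-cell receptor chain gene, was at 0 to 1 counts in DND-41. Of 6 B-lineage markers, 3 were above 1 CPM in DND-41 and 2 in MOLT-4, and their sum was 1535 to 1771 CPM in DND-41 and 10.5 to 17.4 CPM in MOLT-4, nearly all of it CD79A. Between 1 and 2 of the B-lineage genes were at 0 in each group. The 8 myeloid and erythroid markers summed to at most 0.62 CPM in any library, and between 3 and 5 of them were at 0 in a group. The 7 epithelial and fibroblast markers summed to 33.4 to 57.7 CPM in DND-41, nearly all of it PDGFRB, and to 3.87 to 4.65 CPM in MOLT-4. Of these 7 genes, 4 to 5 were at 0 in each DND-41 group and 2 to 3 in each MOLT-4 group. PDGFRB fell in DND-41 under ACBI-1, with a log2 fold change of -0.62 ± 0.09 (SE). Of the T-lineage markers, CD3G at 0.42 ± 0.07 and CD2 at 0.45 ± 0.11 rose in DND-41. In MOLT-4 CD3G rose at 0.39 ± 0.07. There CD5 at -0.54 ± 0.06, BCL11B at -0.38 ± 0.07 and CD7 at -0.205 ± 0.067 fell. The part of these markers in the results was not tested. For a check of the DND-41 DMSO replicate 2 library, 66 genes were chosen by level. They had at least 20 CPM in MOLT-4 and under 0.1% of it on average in the other 3 DND-41 libraries. In DMSO replicate 2 their median was 0.58% of the MOLT-4 level. The median of 0% in the other 3 libraries is held low by that choice. No other library was left free in the same way, so these values do not compare the libraries.

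Sequence upstream of the start was taken from RefSeq (GRCh38.p14), which held a window for 8 of the 10 genes. CCND2 and CCNE2 had none. The 3 genes below that changed under ACBI-1 and have a single window are shown, with CDK4 as a kinase gene that is a known target of MYC. Each line gives the 250 bases before the annotated start, 5′ to 3′ on the strand of the gene. The windows are chr12:12717118-12717367 on the plus strand for CDKN1B, chr19:29811741-29811990 on the plus strand for CCNE1, chr19:10568980-10569229 on the minus strand for CDKN2D and chr12:57752311-57752560 on the minus strand for CDK4. Capitals mark matches on either strand to the GC box GGGCGG, the CCAAT box CCAAT, the MYC-type E-box CACGTG and the E2F-type motif TTTNNCGC.
CDKN1B: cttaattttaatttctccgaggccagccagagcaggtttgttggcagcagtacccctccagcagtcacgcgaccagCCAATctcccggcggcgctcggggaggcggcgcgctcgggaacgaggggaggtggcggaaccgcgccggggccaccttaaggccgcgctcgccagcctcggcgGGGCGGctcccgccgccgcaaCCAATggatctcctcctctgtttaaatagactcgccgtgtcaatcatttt
CCNE1: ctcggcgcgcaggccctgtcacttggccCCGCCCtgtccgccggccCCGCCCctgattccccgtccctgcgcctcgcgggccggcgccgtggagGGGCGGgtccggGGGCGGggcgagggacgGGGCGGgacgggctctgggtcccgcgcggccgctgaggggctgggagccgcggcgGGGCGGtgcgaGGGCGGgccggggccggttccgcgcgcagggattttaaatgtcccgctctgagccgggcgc
CDKN2D: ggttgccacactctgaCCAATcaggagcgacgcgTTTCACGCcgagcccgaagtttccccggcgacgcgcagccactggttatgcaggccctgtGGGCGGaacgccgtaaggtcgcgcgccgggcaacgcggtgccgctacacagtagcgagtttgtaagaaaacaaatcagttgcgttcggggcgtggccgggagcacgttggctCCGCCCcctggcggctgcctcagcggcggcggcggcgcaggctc
CDK4: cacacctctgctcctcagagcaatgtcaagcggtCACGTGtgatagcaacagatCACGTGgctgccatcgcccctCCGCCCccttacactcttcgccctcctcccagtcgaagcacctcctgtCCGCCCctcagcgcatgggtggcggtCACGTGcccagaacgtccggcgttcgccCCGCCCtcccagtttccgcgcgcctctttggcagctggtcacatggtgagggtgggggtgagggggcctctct

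The CCNE1 window held 7 GC boxes between -222 and -61 bases from the start. CDKN1B had 2 CCAAT boxes, at -174 and -50, and 1 GC box at -71. CDKN2D had the single E2F-type match of the 4 windows, at -216, with 2 GC boxes and 1 CCAAT box. CDK4 had 3 E-boxes between -216 and -101 and 3 GC boxes. Among 35116 annotated windows of the same length, 42.6% held a GC box, 32% a CCAAT box, 6.34% an E-box and 5.92% the E2F-type motif, so the GC and CCAAT boxes are common letters. No marked match overlapped another. The RBPJ-type motif TGGGAA, found in 20.8% of windows, and the RUNX-type motif TGTGGT, found in 11%, had no match in these 4 windows. These are matches of letters, and binding was not measured.

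Scaled by exon length, CCND3 was the leading cyclin gene in both lines. Its level was 487 ± 103 TPM (SD, n = 2), a count scaled to exon length and library size, with ACBI-1 and 465.6 ± 5.58 TPM with DMSO in DND-41. In MOLT-4 it was 273.6 ± 10.7 TPM with ACBI-1 and 201.8 ± 16.1 TPM with DMSO. These levels placed CCND3 between the 98.7th and the 99.4th percentile of detected genes. CCND3 made up at least 99.8% of the summed TPM of the 3 D-type cyclins in every library. CCND2, the other D-type cyclin of the set, had 0 and 4 counts with ACBI-1 and 7 and 3 counts with DMSO in DND-41. In MOLT-4 CCND2 had 13 and 9 counts with ACBI-1 and 23 and 19 counts with DMSO. A count of 0 allows up to 3 counts, counting error only, so CCND2 was at or near the limit of detection in DND-41. CCND1, the remaining D-type cyclin, had at most 2 counts in any library.

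**Figure D1:**
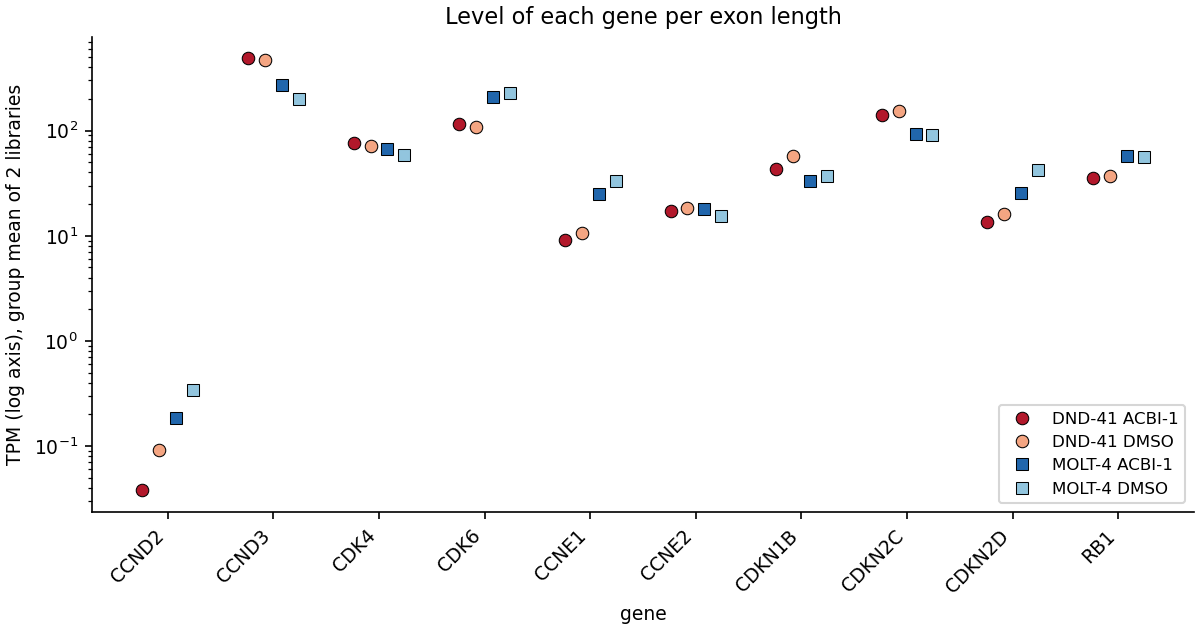
Level of each of the 10 genes in TPM on a log axis, as the mean of 2 libraries, with DND-41 as circles and MOLT-4 as squares and ACBI-1 left of DMSO within each line. CCND3 lies between 201.8 and 487 TPM, and CCND2 at 0.35 TPM or less.

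In DND-41 with DMSO the order of levels after CCND3 was CDKN2C at 154.9 ± 5.76, CDK6 at 108 ± 8.21, CDK4 at 71.9 ± 3.56 and CDKN1B at 57.8 ± 0.48 TPM (SD, n = 2). RB1 followed at 36.7 ± 0.82, then CCNE2 at 18.3 ± 0.14, CDKN2D at 16.1 ± 1.92, CCNE1 at 10.5 ± 0.65 and CCND2 at 0.091 ± 0.052 TPM. The order was the same in DND-41 with ACBI-1, and of the neighbours CDKN2D at 13.5 ± 2.32 and CCNE1 at 9.19 ± 2.18 TPM with ACBI-1 did not differ beyond their spread. In MOLT-4 with ACBI-1 the order was CCND3, CDK6 at 208.2 ± 9.1, CDKN2C at 92.2 ± 2.14, CDK4 at 67.5 ± 2.74 and RB1 at 57.9 ± 4.43 TPM. CDKN1B at 33.2 ± 0.58, CDKN2D at 25.5 ± 0.88, CCNE1 at 24.7 ± 2.09, CCNE2 at 18 ± 1 and CCND2 at 0.19 ± 0.053 TPM completed it. Of the neighbours there, CDKN2D and CCNE1 did not differ beyond their spread. In MOLT-4 with DMSO CDK6 came first at 227.7 ± 37.9 TPM, within its spread of CCND3, and CDKN2C was at 90.5 ± 3.05, CDK4 at 58.7 ± 1.84 and RB1 at 56 ± 0.68 TPM. CDKN2D at 42.4 ± 0.44, CDKN1B at 36.8 ± 0.34, CCNE1 at 33.1 ± 5.45, CCNE2 at 15.6 ± 1.89 and CCND2 at 0.35 ± 0.052 TPM followed, and CDKN1B and CCNE1 did not differ beyond their spread.

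The make-up of each family by level is given as a description, with no test of the shares. CDK6 supplied 60.4 ± 1.89% of the summed TPM of CDK4 and CDK6 with ACBI-1 and 60 ± 3.02% with DMSO in DND-41. Its share was 75.5 ± 0.057% with ACBI-1 and 79.3 ± 3.25% with DMSO in MOLT-4 (SD, n = 2 throughout). CCNE1 held 34.6 ± 4.06% of the E-type cyclin level with ACBI-1 and 36.5 ± 1.6% with DMSO in DND-41, so CCNE2 was the larger of the pair there. In MOLT-4 CCNE1 was the larger, with 57.8 ± 3.42% under ACBI-1 and 67.9 ± 0.95% under DMSO. Among the 4 INK4 genes CDKN2A, whose products are p16 and the MDM2 inhibitor p14ARF, had 68.1 ± 0.32% with ACBI-1 and 65.3 ± 0.67% with DMSO in DND-41. Counts per gene pool these products, so the share of p16 alone is not known. In MOLT-4 CDKN2A had 0.378 ± 0.00027% with ACBI-1 and 0.518 ± 0.473% with DMSO. CDKN2D held 2.75 ± 0.18% with ACBI-1 and 3.21 ± 0.40% with DMSO in DND-41. In MOLT-4 its share was 21.5 ± 0.18% with ACBI-1 and 31.7 ± 0.78% with DMSO, and CDKN2C supplied nearly all of the rest.

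**Figure D2:**
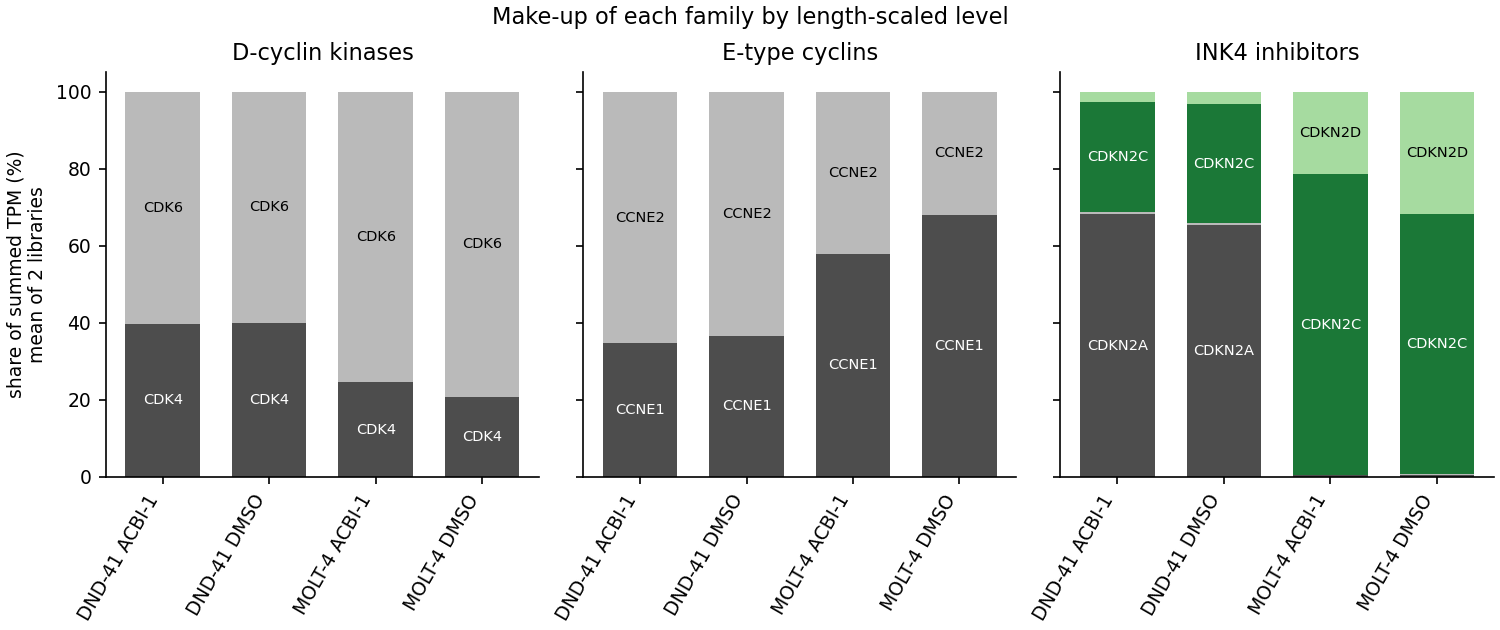
Share of each gene in the summed TPM of its family, in percent, as stacked means of 2 libraries per group, for the D-cyclin kinases, the E-type cyclins and the INK4 inhibitors. CDKN2A, with its products pooled, takes 68.1% and 65.3% of the INK4 level in DND-41 with ACBI-1 and DMSO and under 1% in MOLT-4. The CDKN2D share is 21.5% with ACBI-1 and 31.7% with DMSO in MOLT-4.

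Under ACBI-1 in DND-41, CDKN1B, the gene of the CDK inhibitor p27, was the single member of the set that passed the test. CDKN1B had 43.7 and 46.4 CPM (scaled by TMM) with ACBI-1, against 60.8 and 62.1 CPM with DMSO. Both ACBI-1 libraries lay below both DMSO libraries, as they did for CCNE1, CCNE2, CDKN2C and CDKN2D in DND-41. An exact permutation test of 2 against 2 libraries gives at best p = 0.333 (two-sided) for such separation. Its share over all genes was not computed, so separated groups, here and below, are no evidence of a change by themselves. In bulk RNA, fewer cells with a transcript and less of it per cell cannot be told apart. The log2 fold change was -0.43 ± 0.08 (SE), with an adjusted p of 0.00013, and the level fell by 25.9%. CCND2 was removed by the filter on low counts. Of the 9 members tested with edgeR 0 rose and 1 fell, where 9.83% of the 14019 genes tested were called at 5%. This count is near that share and does not set the members apart. At an unadjusted 0.05, 0 were higher and 2 lower, CDKN1B and CDKN2C, where 21.4% of all genes tested passed. With DESeq2, which called fewer of all genes than edgeR (totals at the end), 0 rose and 1 fell. The median absolute log2 fold change was 0.10 over the 9 members and 0.13 over all genes tested.

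The other inhibitors of the set, CDKN2C and CDKN2D, had lower means with ACBI-1 in DND-41 but did not pass the test. The INK4 genes outside the set did not fall there, with log2 fold changes of 0.02 for CDKN2A and 0.21 for CDKN2B, neither called. CDKN2C had 168.6 and 175.8 CPM with ACBI-1, against 188.3 and 200.4 CPM with DMSO. Its groups did not overlap, and its log2 fold change was -0.16 ± 0.07, with an adjusted p of 0.141 and a 95% interval from -0.29 to -0.02 before adjustment. CDKN2D had 7.02 and 8 CPM with ACBI-1, against 9.86 and 8.4 CPM with DMSO, and its log2 fold change was -0.27 ± 0.14 with an adjusted p of 0.283. CCNE1 had 7.71 and 9.64 CPM with ACBI-1, against 9.66 and 10.6 CPM with DMSO, a pair of groups almost touching, with a log2 fold change of -0.21 ± 0.13 and an adjusted p of 0.400.

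CCND3 had 948.8 and 1145 CPM with ACBI-1, against 1025 and 1017 CPM with DMSO in DND-41. The ACBI-1 libraries lay on either side of the DMSO libraries, and the log2 fold change of 0.05 ± 0.09 had a 95% interval from -0.13 to 0.23. The library with the higher CCND3 value, replicate 2, also had the smallest mitochondrial share of the 8 libraries, 13.3%, against 17.4% in replicate 1 with ACBI-1. The part of that difference in the spread of CCND3 was not tested. CDK4, CDK6, CCNE2 and RB1 had log2 fold changes between -0.09 and 0.10, none past the test. The widest of their 95% intervals reached from -0.05 to 0.26 for CDK6 and from -0.27 to 0.08 for CCNE2.

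The CDKN1B call in DND-41 was lost in the fit of that line without ACBI-1 replicate 1 (adjusted p = 0.137), without ACBI-1 replicate 2 (adjusted p = 0.0536) and with no filter on low counts (adjusted p = 0.111), at log2 fold changes between -0.47 and -0.39. In a fit of all 8 libraries it held in 4 of 4 such leave-outs, with adjusted p values up to 0.00425.

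**Figure D3:**
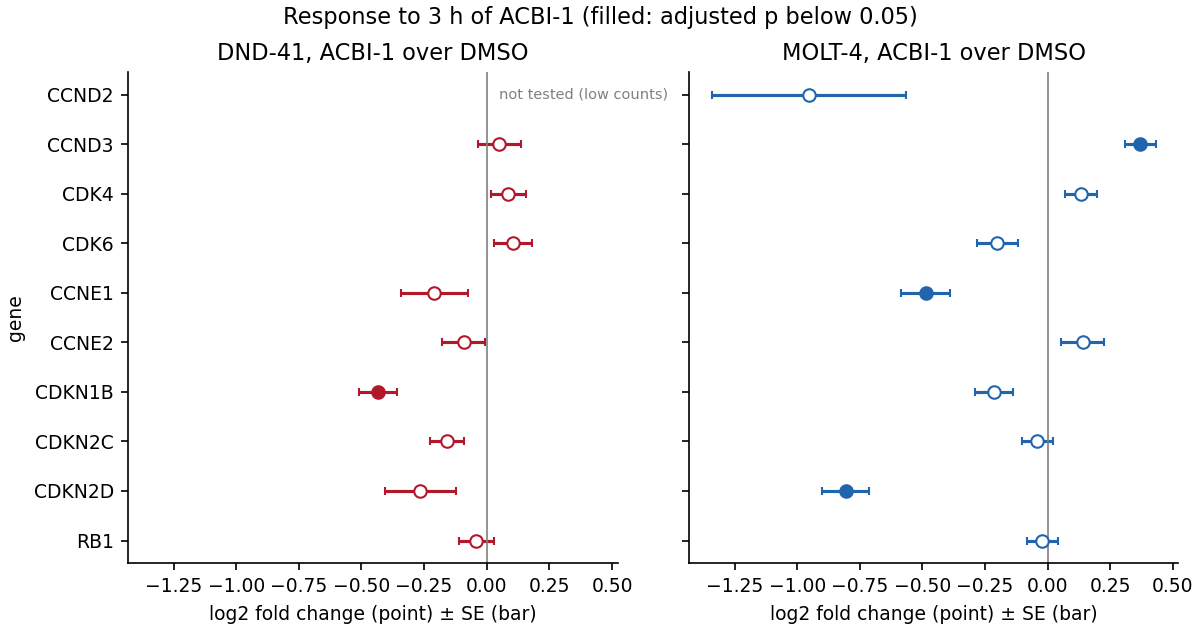
Log2 fold change of ACBI-1 over DMSO for each gene, as a point with its SE as a bar, in DND-41 on the left and MOLT-4 on the right. Filled points have an adjusted p below 0.05: CDKN1B at -0.43 in DND-41, and CCND3 at 0.37, CCNE1 at -0.49 and CDKN2D at -0.81 in MOLT-4.

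In MOLT-4, ACBI-1 was accompanied by a higher CCND3 transcript level and lower levels of CCNE1 and CDKN2D. Of the 10 members, all of which were tested, 1 rose and 2 fell, where 10.8% of the 14470 genes tested were called. At an unadjusted 0.05, 6 of the 10 passed, where 22.6% of all genes tested did. The median absolute log2 fold change was 0.21 over the members and 0.13 over all genes tested.

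CDKN2D, which encodes the INK4 inhibitor p19, had the largest change of the 3 called members. It had 16.0 and 16.1 CPM with ACBI-1, against 27.4 and 28.5 CPM with DMSO. The libraries of each group lay close together, and the groups were well apart. The log2 fold change was -0.81 ± 0.09, with an adjusted p of 6.88e-07, and the level fell by 42.8%.

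CCNE1, the gene of cyclin E1, had 24.3 and 28.9 CPM with ACBI-1, against 40.8 and 33.1 CPM with DMSO. The groups did not overlap, but each was spread over several CPM. Its log2 fold change was -0.49 ± 0.10, with an adjusted p of 0.00109, and the level fell by 28.6%. CCNE2, the paralogue, had 33.7 and 32.9 CPM with ACBI-1, against 32.3 and 27.9 CPM with DMSO, and its log2 fold change of 0.14 ± 0.09 did not pass (adjusted p = 0.358). An interval from -0.04 to 0.32 for CCNE2 thus lay above the one for CCNE1, from -0.69 to -0.29.

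CCND3 had 667.9 and 667.4 CPM with ACBI-1, against 535.8 and 490.9 CPM with DMSO. Both ACBI-1 libraries lay above both DMSO libraries, as they did for CDK4 and CCNE2 in MOLT-4. They lay below both for CCND2, CCNE1, CDKN1B, CDKN2C and CDKN2D. The log2 fold change was 0.37 ± 0.06, a rise of 29.3%, with an adjusted p of 0.00018. CCND2 had a log2 fold change of -0.95 ± 0.39 at 9 to 23 counts per library, with an adjusted p of 0.129.

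CDK6 had 1077 and 1070 CPM with ACBI-1, against 1067 and 1386 CPM with DMSO. The DMSO replicate 2 library stood apart from the other 3. The log2 fold change was -0.20 ± 0.08 with an adjusted p of 0.130. It was -0.38 with an adjusted p of 4.26e-05 without DMSO replicate 1 and -0.0008 without DMSO replicate 2, so 1 library decided its value. CDK4 had 90.0 and 89.8 CPM with ACBI-1, against 82.4 and 80.8 CPM with DMSO, with a log2 fold change of 0.13 ± 0.06 and an adjusted p of 0.225.

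CDKN1B, called in DND-41, had 37.8 and 40.9 CPM with ACBI-1 in MOLT-4, against 44.5 and 46.2 CPM with DMSO. The groups did not overlap, and the log2 fold change of -0.21 ± 0.08 had an adjusted p of 0.0721. CDKN2C at -0.04 ± 0.06 and RB1 at -0.02 ± 0.06 had the narrowest 95% intervals, from -0.17 to 0.08 and from -0.15 to 0.10.

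**Figure D4:**
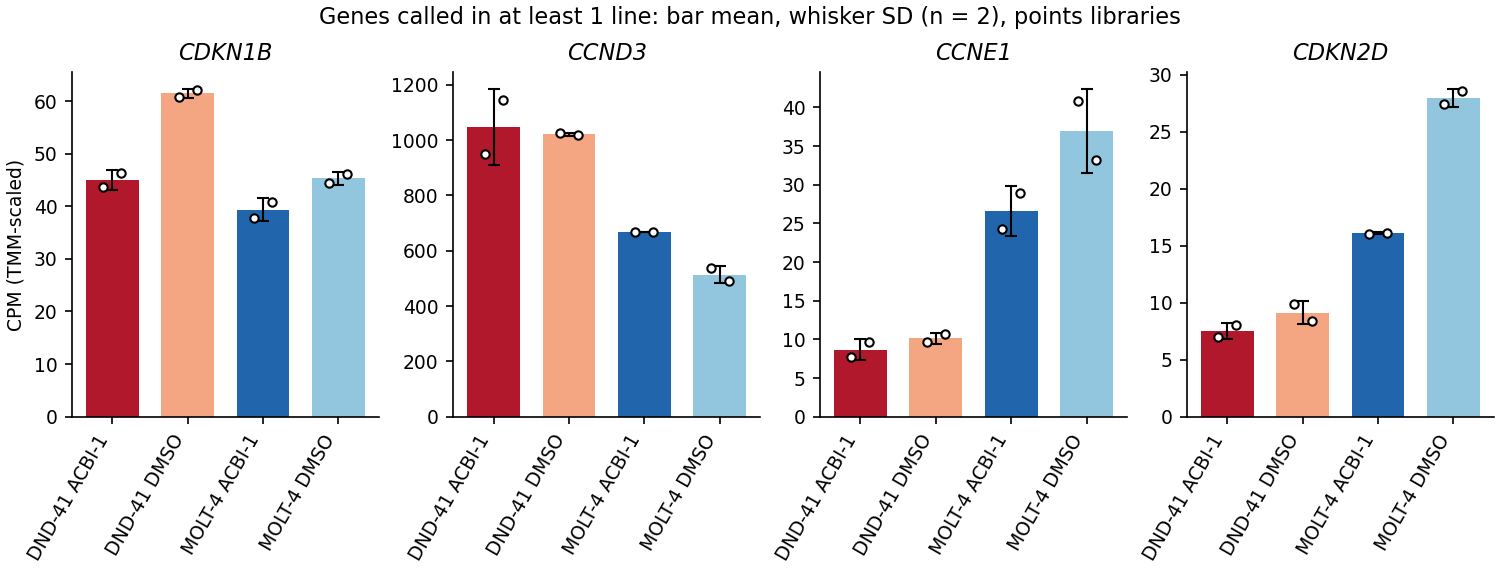
CPM, scaled by TMM, of the 4 genes called in at least 1 line, with bars for the mean, whiskers for the SD (n = 2) and points for libraries, and ACBI-1 left of DMSO in each line. CDKN2D stands at 16.0 and 16.1 CPM with ACBI-1 and 27.4 and 28.5 CPM with DMSO in MOLT-4, and CDKN1B at 43.7 and 46.4 CPM with ACBI-1 and 60.8 and 62.1 CPM with DMSO in DND-41.

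All 3 MOLT-4 calls were lost in the fit of that line without ACBI-1 replicate 1 (adjusted p of 0.271 for CDKN2D, 0.473 for CCNE1 and 0.331 for CCND3), without ACBI-1 replicate 2 (0.119, 0.229 and 0.195 in the same order) and with no filter on low counts (0.0517, 0.292 and 0.103). In leave-outs from the fit of all 8 libraries CDKN2D held in 4 of 4 (adjusted p up to 0.000639), CCND3 in 3 of 4, failing without DMSO replicate 2 (0.0669), and CCNE1 in 2 of 4, failing without ACBI-1 replicate 1 (0.114) or DMSO replicate 1 (0.112).

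In the authors' deposited tables the same genes were called, CDKN1B in DND-41 and CCND3, CCNE1 and CDKN2D in MOLT-4. The authors' deposited table for DND-41 gives a log2 fold change of -0.43 ± 0.10 for CDKN1B, with an adjusted p of 0.000966. For MOLT-4 the authors' deposited table runs as DMSO over ACBI-1 and gives -0.38 ± 0.06 for CCND3, 0.48 ± 0.14 for CCNE1 and 0.80 ± 0.14 for CDKN2D. Adjusted p values in that authors' deposited table are 2.99e-07 for CCND3, 0.0136 for CCNE1 and 9.82e-07 for CDKN2D.

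Whether the 2 lines responded differently was tested as the interaction of line and treatment in the fit of all 8 libraries. With edgeR 0 of 10 members were called, where 0.641% of 15604 genes were, and with DESeq2 also 0. At an unadjusted 0.05, 5 of the 10 passed, where 7.64% of all genes tested did. These were CDKN2D, CCND3, CDKN1B, CDK6 and CCNE2. The response of DND-41 minus that of MOLT-4 was 0.52 ± 0.16 for CDKN2D (adjusted p = 0.209) and -0.34 ± 0.11 for CCND3 (adjusted p = 0.248). For CDKN1B it was -0.24 ± 0.10 (adjusted p = 0.546), with a 95% interval from -0.46 to -0.03. For CCNE1 it was 0.25 ± 0.18, with an interval from -0.11 to 0.62. A call in one line and not in the other is therefore no measured difference between the lines for these genes. Without DND-41 ACBI-1 replicate 2 the CCND3 difference was -0.48 with an adjusted p of 0.00577, and without MOLT-4 DMSO replicate 1 the CDK6 difference was 0.49 with an adjusted p of 0.031.

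With DMSO alone the lines differed in most members. DND-41 had more CCND3, CDKN1B and CDKN2C transcript, and MOLT-4 more CCND2, CDK6, CCNE1, CDKN2D and RB1. Of 10 members tested 3 were higher and 5 lower in DND-41, where 64.4% of all 15604 genes were called, so a call by itself sets no gene of the set apart. The median absolute log2 difference was 0.91 over the members and 0.47 over all genes tested.

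Among the cyclins, CCND3 was higher in DND-41 by 0.99 ± 0.08 on the log2 scale (1.99-fold, adjusted p = 1.16e-11). CCNE1, at 9.66 and 10.6 CPM in DND-41 and 40.8 and 33.1 CPM in MOLT-4, differed by -1.87 ± 0.12, or 0.274-fold (adjusted p = 8.13e-14). CCNE2 differed by 0.01 ± 0.09, with a 95% interval from -0.16 to 0.19, so the lines differed in the first E-type cyclin and had no measurable difference in the second. CCND2 differed by -2.10 ± 0.53 from counts of at most 23 (adjusted p = 0.000981). Its value was -2.81 without DND-41 DMSO replicate 1 and -1.64 without DND-41 DMSO replicate 2, and the call held in 14 of 14 alternatives.

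Among the kinases, CDK6 had 525 and 475.8 CPM in DND-41 and 1067 and 1386 CPM in MOLT-4, a log2 difference of -1.29 ± 0.09 (adjusted p = 4.38e-13). CDK4 had 82.6 and 89.5 CPM in DND-41 and 82.4 and 80.8 CPM in MOLT-4, and its difference of 0.08 ± 0.07 did not pass (95% interval from -0.06 to 0.21). RB1 had 87.6 and 91.2 CPM in DND-41 and 155.2 and 161.9 CPM in MOLT-4, a difference of -0.83 ± 0.07 (adjusted p = 1.52e-11). RB1 and CDK6 were thus both lower in DND-41, while CDK4 was at a like level in the 4 libraries.

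The inhibitors went in both directions. CDKN2D differed by -1.62 ± 0.11 (0.326-fold, adjusted p = 1.89e-13), while CDKN2C differed by 0.56 ± 0.06 (adjusted p = 1.03e-08) and CDKN1B by 0.44 ± 0.07 (adjusted p = 6.85e-06). The 8 calls with DMSO held in each of the 14 alternatives run for this comparison.

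With ACBI-1 the lines differed in 9 of 10 members, 3 higher and 6 lower in DND-41, where 64.8% of all genes were called. Both line comparisons use the same 2 cell lines, with separate libraries. The log2 difference was 0.65 ± 0.08 for CCND3, 0.42 ± 0.06 for CDKN2C, -1.01 ± 0.09 for CDK6, -1.61 ± 0.13 for CCNE1, -1.10 ± 0.12 for CDKN2D, -0.87 ± 0.07 for RB1 and -2.45 ± 0.74 for CCND2. The CCND2 call rested on few counts, and its value was -1.51 without DND-41 ACBI-1 replicate 1, where the call was lost (adjusted p = 0.0899), and -6.49 without DND-41 ACBI-1 replicate 2. It was also lost without MOLT-4 ACBI-1 replicate 1 (0.0602). CDK4, at 87.2 and 93.5 CPM in DND-41 and 90.0 and 89.8 CPM in MOLT-4, differed by 0.01 ± 0.07. CDKN1B was higher in DND-41 by 0.20 ± 0.08 (adjusted p = 0.025), a call lost with DESeq2 (0.0589), without DND-41 ACBI-1 replicate 2 (0.147) and without MOLT-4 ACBI-1 replicate 1 (0.122). CCNE2 differed by -0.24 ± 0.08 (adjusted p = 0.0141), a call lost in 5 of 14 alternatives, among them total-count scaling (0.0591) and the leave-outs of DND-41 ACBI-1 replicate 2 (0.0655), MOLT-4 ACBI-1 replicate 1 (0.125) and MOLT-4 ACBI-1 replicate 2 (0.0593).

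The rest of the G1 network was read from a list of 34 other regulators, of which 32 were tested in each line. Over all genes tested, 21.4% passed an unadjusted 0.05 in DND-41 and 22.6% in MOLT-4. Shares of all genes called, here and below, are from edgeR. DESeq2 called fewer genes in both responses to ACBI-1 (totals at the end). In DND-41 edgeR called 0 higher and 4 lower (1 and 6 at an unadjusted 0.05, 0 and 2 with DESeq2), where 9.83% of all genes were called, and the list median was -0.0014, against 0.0029 over all genes. E2F8, a repressor E2F, fell by 0.79 on the log2 scale and had 48.8 ± 0.74 CPM with ACBI-1 and 85.5 ± 3.53 CPM with DMSO (SD, n = 2). CDKN1A, the gene of the CDK inhibitor p21, fell by 0.70 and had 11.3 ± 1.25 CPM with ACBI-1 and 18.5 ± 1.61 CPM with DMSO. E2F5, a repressor E2F, fell by 0.44, and AMBRA1, an adaptor in the degradation of D-type cyclins, fell by 0.25. In MOLT-4 edgeR called 0 higher and 3 lower (0 and 6 at an unadjusted 0.05, 0 and 3 with DESeq2), where 10.8% of all genes were called, and the list median was -0.04, against -0.001 over all genes. These were E2F8, which fell by 0.56 to 63 ± 2.21 CPM with ACBI-1, against 92.5 ± 0.25 CPM with DMSO, LIN54, a DNA-binding part of the DREAM complex, by 0.39, and CUL1, the scaffold of SCF ubiquitin ligases, by 0.38.

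The 25 listed E2F target genes of G1/S, which stand downstream of RB, had a median log2 fold change of -0.01 for DND-41 cells and 0.02 for MOLT-4 cells. In DND-41 edgeR called 0 higher and 1 lower (1 and 2 at an unadjusted 0.05, 0 and 1 with DESeq2), which was UHRF1, a cofactor of DNA methylation maintenance, at -0.35 ± 0.07. In MOLT-4 UHRF1 fell at -0.28 ± 0.06 and MCM10, a replication factor, rose at 0.25 ± 0.07 (4 higher and 2 lower at an unadjusted 0.05), while DESeq2 called 0 higher and 1 lower, so the MCM10 call was lost there. The edgeR calls, 1 of 25 in DND-41 and 2 of 25 in MOLT-4, are to be read against 9.83% and 10.8% of all genes called. Such small counts do not set the list apart in either direction. Unadjusted counts are to be read against 21.4% and 22.6% of all genes in the same order. Of 10 listed genes of G2 and mitosis, edgeR called 1 higher and 2 lower in DND-41, where 9.83% of all genes were called. The counts were the same at an unadjusted 0.05 and with DESeq2. BUB1 rose at 0.28 ± 0.07, and the kinase genes AURKA at -0.27 ± 0.07 and PLK1 at -0.27 ± 0.07 fell. The list median in DND-41 was -0.10. In MOLT-4 edgeR called 0 of the 10, with 1 at an unadjusted 0.05 and 0 with DESeq2, and the median was -0.07.

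Of 13 listed transcription factors known to act on these genes, 4 rose and 2 fell in DND-41, and 3 rose and 4 fell in MOLT-4, where 9.83% and 10.8% of all genes were called in the same order of lines. With DESeq2 3 rose and 2 fell in DND-41, and 2 rose and 3 fell in MOLT-4. DESeq2 called fewer of all genes in both lines, so these counts are not to be read against the edgeR shares. MYC rose in both lines, by 0.30 ± 0.09 on the log2 scale for DND-41 and by 0.35 ± 0.06 for MOLT-4. ZBTB17, which encodes the MYC partner MIZ1, rose by 0.34 ± 0.08 and 0.23 ± 0.07 in the same order, and MYB by 0.22 ± 0.07 and 0.22 ± 0.06. MXD1, a MYC antagonist, fell in both lines, at -0.73 ± 0.11 for DND-41 and -0.42 ± 0.13 for MOLT-4, and so did GFI1, a repressor in lymphoid cells, at -0.44 ± 0.08 for DND-41 and -0.34 ± 0.07 for MOLT-4. FOXO3, an activator of CDKN1B in other cells, rose at 0.26 ± 0.08 in DND-41, where CDKN1B fell. NOTCH1, whose product raises CCND3 in T-ALL, had 454.3 ± 7.47 CPM with ACBI-1 and 828.2 ± 4.63 CPM with DMSO in MOLT-4, a log2 fold change of -0.88 ± 0.06, where CCND3 rose. Any part of FOXO3 in the change of CDKN1B, or of NOTCH1 in that of CCND3, was not tested. GATA3, a T-cell factor, fell at -0.48 ± 0.06 in MOLT-4. Several of these calls were near the limit. In DND-41 the adjusted p was 0.027 for MYC, 0.033 for FOXO3 and 0.039 for MYB. In MOLT-4 it was 0.026 for ZBTB17, 0.027 for MYB and 0.031 for MXD1. For single genes, leave-outs and the fit with no filter were read for the members only, not for the listed genes. The responses of NOTCH1 and GATA3 differed between the lines, by 0.85 ± 0.11 (adjusted p = 4.86e-05) and 0.40 ± 0.09 (adjusted p = 0.0423).

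**Figure D5:**
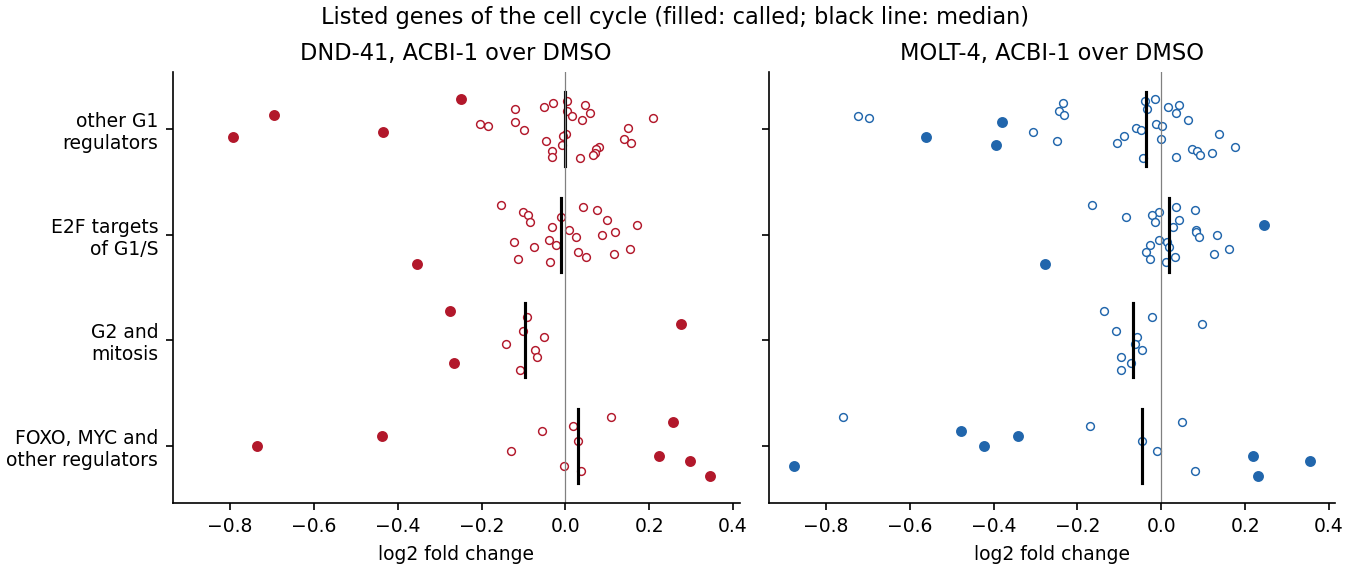
Log2 fold change of ACBI-1 over DMSO for the tested genes of the 4 lists, in DND-41 on the left and MOLT-4 on the right, with called genes filled and the list median as a black line. The E2F target lists sit around 0, with medians of -0.01 on the left and 0.02 on the right.

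With DMSO, 10 of 33 tested G1 regulators were higher and 8 lower in DND-41, where 64.4% of all genes were called, so the count does not set the list apart. CDKN2A counts ran from 10734 to 11276 over the 4 libraries of DND-41 and from 9 to 42 over those of MOLT-4, a log2 difference of 8.66 ± 0.16 with DMSO. CDKN1A at 3.09 ± 0.16 and CDKN2B, the INK4 gene of p15, at 3.77 ± 0.36 were also higher in DND-41, as was E2F6 at 0.84 ± 0.10. LIN54 at -0.78 ± 0.07 and E2F7 at -0.46 ± 0.07 were lower. Of the 25 E2F targets 6 were higher and 9 lower in DND-41, of the 10 G2 and mitosis genes 2 and 4, and of the 13 factors 3 and 7, to be read against the same 64.4%. Among the factors were FOXO1 at 3.19 ± 0.23, RUNX1 at -1.06 ± 0.07 and MYB at -1.02 ± 0.07.

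Among 10257 genes with a mean of at least 5 CPM, the profiles over the 4 groups that lay nearest to a called member were found by distance between centred log2 levels. The nearest to CDKN1B was RP11-521B24.3 at 0.0446, followed by DNAJC6 at 0.0455, with 12.4 CPM with ACBI-1 and 17.2 CPM with DMSO in DND-41. The nearest to the other called members were LRRC1 at 0.0739 from CCND3, CHST12 at 0.0402 from CCNE1 and ARHGEF10 at 0.156 from CDKN2D. With 4 group means such likeness is a description.

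Some reads may belong to neighbours, since the strand setting of the counting is not given in the sources used here. In GENCODE release 29, TSPAN31 on the other strand shares 43.2% of the exon bases of CDK4 and INTS8 shares 37% of those of CCNE2. TSPAN31 had 15.3 to 18.5 CPM and INTS8 31.4 to 52.4 CPM as group means, so the values of CCNE2 in particular are uncertain. CDKN1B, CCNE1 and CDKN2D had no listed overlap, and CCND3 shared 0.414% of its exon bases with a lincRNA at 0.155 CPM or less.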

How the data were processed

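The members and gene lists were chosen with earlier results of these data known. The authors deposited raw read counts for 63677 genes per line, without normalization. They also deposited a table per line of their own log2 fold change, its error, p-value and adjusted p-value, per the file headers. The sign of these tables was read from their correlation with the fold changes computed here, which rounded to 1 for the DND-41 table and to -1 for the MOLT-4 table. These tables also hold a mean signal over normalized counts and a test score per gene, both as deposited and not used here. The submitters' processing notes name hg19, STAR 2.5.2a, featureCounts and DESeq2 1.12.4. Libraries were strand-specific, per the labels' protocols, and the strand setting of the counting is not given in the sources used here.

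The quasi-likelihood F-test of edgeR 4.0.16, with limma 3.58.1 under R 4.3.3, was applied to the counts after TMM scaling and filterByExpr, and was checked on simulated data. The response of a line was fitted on the 4 libraries of that line. The interaction and the comparisons of lines came from a fit of all 8. P-values were adjusted by Benjamini-Hochberg over all genes tested, with a call at 5%, and every adjusted p is from edgeR unless another tool is named. CPM values are TMM-scaled over the 8 libraries. TPM values divide counts by the exon length of GENCODE release 29, matched by identifier for 94.5% of detected genes. All 10 members were to be named, and from each list at most the 6 called genes with the smallest p. An exact permutation test of 2 against 2 libraries cannot go below p = 0.333 (two-sided) and was not used. Replicates differed beyond sampling noise. The mean chi-square per gene was 17.2 in DND-41 with ACBI-1 and 3.19 in DND-41 with DMSO. In MOLT-4 it was 4.625 with ACBI-1 and 5.58 with DMSO. The noisiest group, DND-41 with ACBI-1, enters the DND-41 responses, the interaction and the comparison of lines with ACBI-1. Alternatives were DESeq2 1.42.0, other scalings, no filter, a replicate block, other sets of libraries and leave-outs. Leave-outs from the fit of all 8 libraries were added after seeing the data.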

Additional observations from a re-analysis of the deposited data

How the results depend on the processing

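Counts of called genes moved with the processing in the comparisons of ACBI-1 with DMSO, and the cause was not tested. In DND-41 the count was 1378, and it was 664 with DESeq2, 2 with no filter on low counts, between 3 and 632 when a library was left out of the fit of that line, and between 692 and 1264 when it was left out of the fit of all 8. In MOLT-4 it was 1568, and it was 754 with DESeq2, 39 with no filter, between 0 and 1430 when a library was left out of the fit of that line, and between 712 and 942 when it was left out of the fit of all 8. The interaction had 100 calls, 13 with no filter and between 49 and 138 when a library was left out. Of the members, 0 were called with no filter in either line. Leaving out a library gave 0 to 1 called members in DND-41 and 0 to 4 in MOLT-4 in the fit of the line, 1 and 2 to 3 in the same order in the fit of all 8, and 0 to 1 in the interaction. In the comparisons of lines the members called numbered 8 in each alternative with DMSO and 6 to 9 with ACBI-1.

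The labels do not say whether same-numbered replicates were handled together. Their deviations from the group means correlated over genes at 0.0732 (DND-41) and 0.0646 (MOLT-4). With 2 libraries a group, these values cannot settle whether the replicates are paired. With the replicate number as a block the called genes were 2230 in DND-41, 2228 in MOLT-4 and 302 in the interaction. The block gave 2 called members in DND-41 (CDKN2C added, adjusted p = 0.0342), 5 in MOLT-4 (CDK6 added at 0.0057 and CDKN1B at 0.0235) and 1 in the interaction (CCND3 at -0.35, adjusted p = 0.00383).

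Signs turned only for values that were not called. CCNE2 between the lines with DMSO was -0.0041 with DESeq2 and -0.0041 with its size factors, and between -0.12 and 0.12 when a library was left out. RB1 in MOLT-4 was 0.0047 with total counts. When a library was left out, the ranges that crossed 0 were -4.39 to 0.59 for the CCND2 interaction, -0.104 to 0.18 for CCND3 in DND-41, -0.0426 to 0.0545 for CDK4 between the lines with ACBI-1, -0.134 to 0.0334 for RB1 in DND-41, -0.0727 to 0.0253 for RB1 in MOLT-4 and -0.12 to 0.0314 for the RB1 interaction. With 2 libraries a group, small responses are beyond what these data can separate from the spread, and CCND2 is limited by counting.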
